A study of Mus musculus with 11 samples.

Results

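The genes described here are 37 genes of sterol and lipid synthesis, listed by name. The list was chosen with earlier results of these data known, so counts set beside all tested genes describe it and are no independent test. It holds the enzymes that make cholesterol, the SREBP control system, sterol transport and export proteins, and enzymes of fatty acid synthesis and use. Of the 37, 36 had a probe set that carries 1 gene symbol, among 18193 such genes on the array, and all 36 were among the 13338 genes bright enough to be tested; Acat2 was not analysed here. Each gene was read from its probe set of highest mean over the 11 arrays.

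RNA came from C57BL/6 mouse embryos at embryonic days 8.5 and 9.5, with no genetic change or drug treatment in any group. The neuroepithelium with its attached notochord was freed in 2.5% pancreatin and 0.5% trypsin on ice, for 5 min at E8.5 and 8 min at E9.5. It was cut into the open neuroepithelium, which lies caudal to the point where the neural folds have met, and the closed neural tube just rostral to that point. Pieces of a litter could be combined, the series used 111 embryos, and 50 ng of RNA per sample was amplified in 2 cycles for an Affymetrix whole-genome mouse array. There were 3 arrays of open E8.5 tissue, 2 of closed E8.5, 3 of open E9.5 and 3 of closed E9.5; 1 closed E8.5 array of the 12 hybridised was removed by the authors for quality. The labels call the arrays biological replicates and do not say whether open and closed samples with the same number came from the same litters.

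Arrays of a group correlated at 0.982 to 0.997 over all tested genes, and array medians lay between 4.80 and 4.90 on the log2 scale. All 6 neural progenitor markers measured (such as Sox2 and Pax6) were above the filter on low values, and their mean level was higher in closed tissue, at 10.0 to 10.2 against 8.61 to 8.88 at E8.5 and 9.76 to 10.0 against 8.80 to 9.16 at E9.5. Of the 6, Sox1, Pax6 and Nes passed as higher in the closed tube at E8.5, and these and Sox2 at E9.5. Sox1 also had a negative interaction (-1.92, adjusted p = 0.00191, limma), the sign of the sterol enzymes, and its part in their differences was not tested. The interactions of the rest did not pass: -0.70 for Pax6, -0.38 for Cdh2, -0.13 for Nes, 0.33 for Sox2 and 0.07 for Sox3. Markers of caudal progenitors ran the other way at both stages (5 of 5 lower in closed tissue), and of 6 surface ectoderm markers 3 were lower in closed tissue at E8.5 and 2 at E9.5. Of 2 notochord markers, 1 was lower in closed tissue at E8.5 and 2 were higher at E9.5. The 1 lower was Shh, which had a positive interaction (1.63, adjusted p = 0.00168, limma), the opposite sign to the sterol enzymes. On closed E8.5 replicate 2, the 6 somite markers averaged 6.03, against 4.43 to 4.79 on the other 10 arrays. The 3 tested passed no regional comparison or interaction. Tcf15 differed by 0.49 at E8.5 and -0.43 at E9.5 (interaction -0.92, adjusted p = 0.12, limma), and rose by 0.66 in open tissue (adjusted p = 0.0339). Meox1 and Pax1 had higher closed means at both stages, with interactions of -0.97 and -0.41. The part of somite cells in the sterol differences was not tested. Markers of the lipid-handling visceral and gut endoderm averaged 4.96 to 5.25 on all arrays, with Sox17 and Cubn below the filter. Of the 6 endoderm markers tested, only Foxa1 passed a regional comparison. Foxa1 was lower in closed tissue at E9.5, at 7.34 to 7.93 against 8.16 to 8.62, the direction of the sterol enzymes at that stage. Its part in their differences was not tested. Macrophage markers averaged 4.07 to 4.41 (Ptprc, Cd68 and Aif1 below the filter), and endothelial markers 4.10 to 4.41 (Pecam1, Cdh5 and Tek below it); the 1 tested, Kdr, was higher in closed tissue at E9.5, at 5.62 to 6.14 against 5.10 to 5.30. In tissue pieces of this kind, fewer cells of a type and less RNA per cell cannot be told apart.

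Cholesterol is built from acetyl-CoA through the mevalonate arm, which ends in farnesyl diphosphate, and a second arm that joins farnesyl units into squalene, closes the rings and trims the sterol to cholesterol. When sterols in the endoplasmic reticulum run low, the escort protein Scap carries the SREBP transcription factors to the Golgi for cleavage, and the freed factor turns on genes of both arms together with genes of sterol uptake and fatty acid synthesis; Insig proteins hold Scap back when sterols are plentiful. In the embryo cholesterol is a membrane lipid and is also attached to Sonic hedgehog, and loss of Dhcr7, the last enzyme of 1 route to cholesterol, causes Smith-Lemli-Opitz syndrome in people.

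SREBP binds sterol elements near the start of its target genes, usually beside a CCAAT box, the site of NF-Y. RefSeq promoter windows (GRCm38.p6) that run from 250 bases before to 50 bases after the start were at hand for 27 of the 37 listed genes, in 35 windows. Shown are those of the 5 genes whose regional difference changed with stage and that have a window; Fdft1, Sqle, Stard4 and Lpl have none in the table. Capitals mark TCACNNCA, a loose form of the sterol element that was chosen after these sequences had been read, its stricter form TCACNCCAC, and CCAAT. Each is marked on either strand (ATTGG is CCAAT on the other strand).
Hmgcs1: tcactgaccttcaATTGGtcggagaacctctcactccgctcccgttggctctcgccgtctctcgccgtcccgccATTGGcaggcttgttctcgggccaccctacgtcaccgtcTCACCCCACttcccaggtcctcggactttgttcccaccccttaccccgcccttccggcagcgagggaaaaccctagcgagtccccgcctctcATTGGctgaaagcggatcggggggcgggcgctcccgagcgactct
Cyp51: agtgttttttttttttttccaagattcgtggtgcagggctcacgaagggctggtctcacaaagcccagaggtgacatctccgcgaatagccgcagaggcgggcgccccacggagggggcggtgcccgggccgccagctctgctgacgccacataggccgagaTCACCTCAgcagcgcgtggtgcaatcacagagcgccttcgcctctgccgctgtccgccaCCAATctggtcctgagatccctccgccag
Nsdhl: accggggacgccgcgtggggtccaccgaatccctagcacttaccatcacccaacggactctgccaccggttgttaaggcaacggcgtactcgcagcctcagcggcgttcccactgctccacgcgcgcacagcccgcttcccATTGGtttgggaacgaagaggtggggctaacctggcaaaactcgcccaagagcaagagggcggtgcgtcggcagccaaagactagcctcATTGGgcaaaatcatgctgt
Sc5d: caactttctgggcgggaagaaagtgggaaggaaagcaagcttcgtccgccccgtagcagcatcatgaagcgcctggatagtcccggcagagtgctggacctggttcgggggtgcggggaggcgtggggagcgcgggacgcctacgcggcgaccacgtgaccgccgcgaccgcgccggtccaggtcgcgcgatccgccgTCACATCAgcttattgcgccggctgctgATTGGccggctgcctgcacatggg
Dhcr7: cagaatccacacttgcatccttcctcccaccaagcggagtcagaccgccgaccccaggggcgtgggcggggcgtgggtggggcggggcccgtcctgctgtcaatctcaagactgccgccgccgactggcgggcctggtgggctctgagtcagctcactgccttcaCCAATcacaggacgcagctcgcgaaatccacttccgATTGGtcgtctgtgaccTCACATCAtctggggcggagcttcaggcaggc
The stretches, each the 250 bases before the start, are chr13:119690101-119690350 on the plus strand for Hmgcs1, chr5:4104698-4104947 on the minus strand for Cyp51, chrX:72918271-72918520 on the plus strand for Nsdhl, chr9:42264301-42264550 on the minus strand for Sc5d and chr7:143829964-143830213 on the plus strand for Dhcr7, which has 3 windows in the table.

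The stricter form TCACNCCAC, which always contains the loose form, was in 1 of the 35 windows, that of Hmgcs1, and in 1.24% of all 32851 windows in the table. The loose form was in 11 of 35 windows (31.4%), against 13.8% of all windows. Nsdhl holds it on the opposite strand across the start of the gene, so it lies partly outside the stretch shown. CCAAT was in 22 of 35 windows (62.9%) against 37.4%, and GGGCGG, the Sp1 box, in 27 of 35 (77.1%) against 35.7%, both strands counted. These are letters found in a window and no evidence of binding.

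At E8.5, 6 of the 36 genes were higher in closed neural tube than in open neuroepithelium and none was lower, where 7.17% of all tested genes passed (3.79% higher and 3.38% lower; limma, Benjamini-Hochberg adjusted p under 0.05 over all tested genes). The 6 were the sterol enzymes Hmgcs1, Sqle, Sc5d and Dhcr7, the sterol carrier Stard4 and the lipase Lpl. At an unadjusted p under 0.05, 12 of 36 were higher and 0 lower, against 8.08% and 6.79% of all tested genes. The median difference, closed minus open, was 0.26 over the 36 genes and 0.00 over all tested genes, on the log2 scale. All closed arrays lay above all open arrays for 16 of the 36 and below for 2, where 14.9% and 12.6% of all tested genes did so (27.5% in either direction). At E9.5 the order was turned: 8 genes were lower in closed tissue and 1, the sterol exporter Abca1, was higher, where 5.79% and 2.75% of all tested genes passed (8.54% in all). The 8 were Hmgcs1, Fdft1, Sqle, Cyp51, Nsdhl, Sc5d, Elovl6 and Lpl. The median difference was -0.36, against -0.01 over all tested genes, and closed arrays lay below open arrays for 16 of the 36 and above for 1 (13.7% and 8.82% of all tested genes, 22.5% in either direction). At an unadjusted p under 0.05, 17 were lower and 1 was higher (12.6% and 6.65% of all tested genes).

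**Figure D1:**
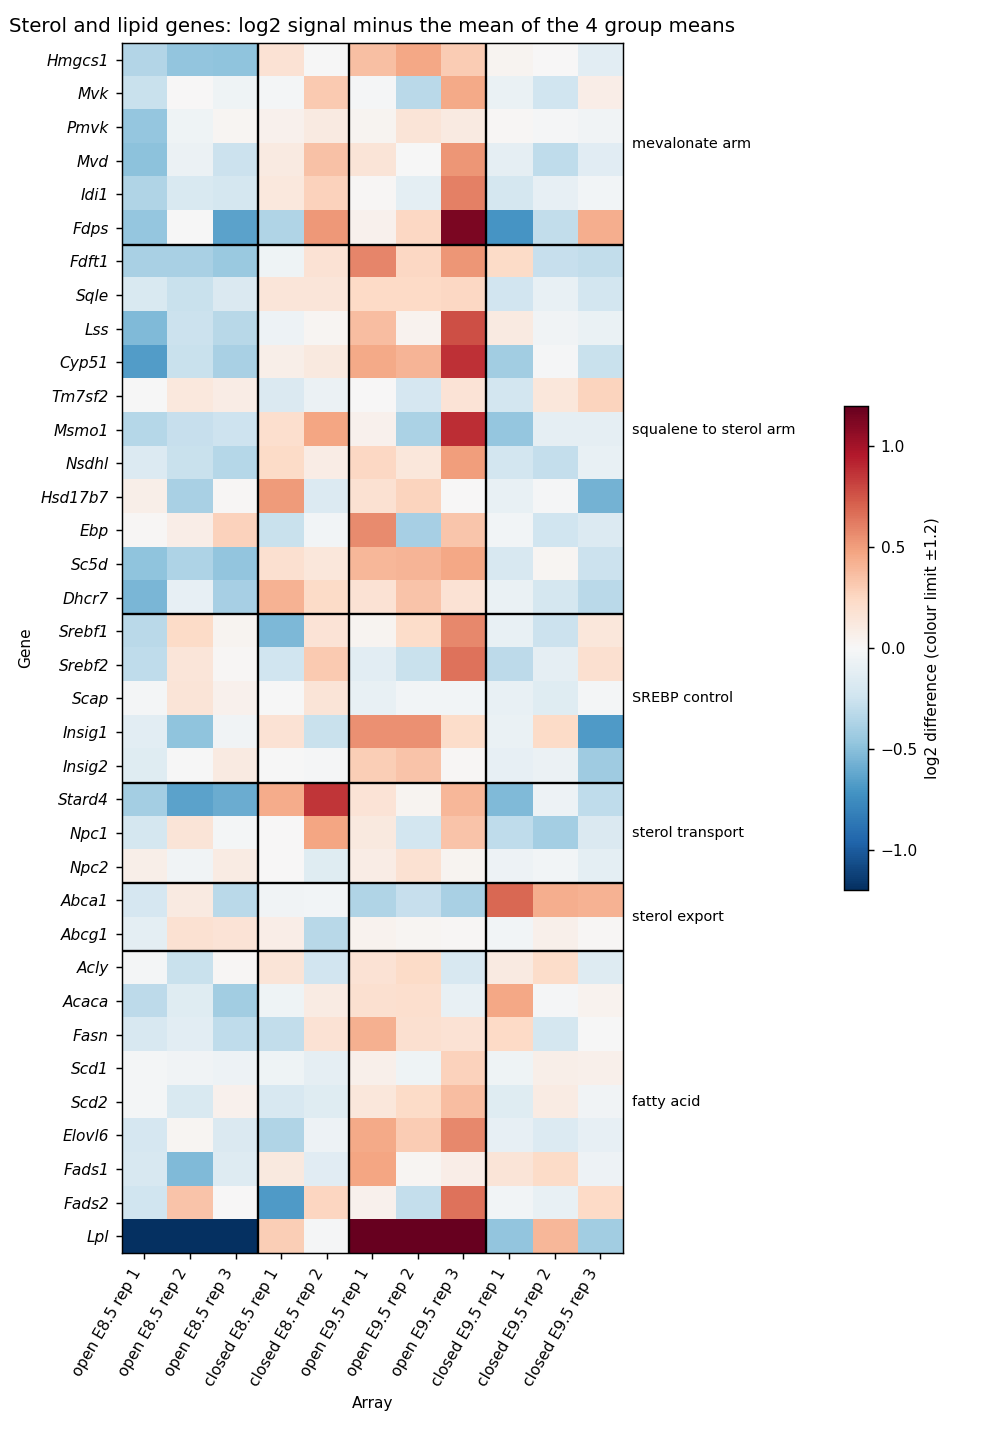
Each row is 1 of the 36 genes and each column 1 of the 11 arrays, and colour is the log2 signal minus the mean of the gene's 4 group means (colour limit ±1.2, which Lpl exceeds). In both sterol arms most genes are blue on open E8.5 arrays and red on open E9.5 arrays, with closed E8.5 above open E8.5 and closed E9.5 below open E9.5, while Abca1 is red on the 3 closed E9.5 arrays.

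The same arrays seen by stage gave 11 of 36 genes higher at E9.5 than at E8.5 in open neuroepithelium and 0 lower, against 3.61% and 1.42% of all tested genes (5.02% in either direction); at an unadjusted p under 0.05, 19 were higher and 0 lower (10.7% and 6.85% of all tested genes). In closed neural tube 1 gene, Stard4, was lower at E9.5 and 0 were higher, against 1.46% and 0.96% of all tested genes (2.42% in either direction), and at an unadjusted p under 0.05 7 were lower and 1 higher (6.39% and 3.79% of all tested genes). Arrays of the stages did not overlap, with E9.5 above, for 20 genes in open tissue and 2 in closed tissue (12.1% and 7.86% of all tested genes). E9.5 lay below for 1 gene in open and 13 in closed tissue (9.75% and 13.3%), and in either direction 21.8% and 21.2% of all tested genes did not overlap. The median stage difference was 0.41 in open tissue and -0.12 in closed tissue, beside medians of -0.02 and -0.03 over all tested genes. The regional and stage comparisons share their arrays, so they are 4 views of 1 set of values. The embryonic globin and erythroid markers also differed by stage, with Gata1 below the filter. Their mean level was 4.99 to 6.28 on open E8.5 arrays and 7.80 to 8.03 on open E9.5 arrays. Closed E8.5 arrays gave 6.25 to 6.43 and closed E9.5 arrays 7.07 to 7.90. The closed minus open difference of the globin Hba-x was 0.55 at E8.5 but -0.52 at E9.5. For Hbb-bh1 it went from 0.75 to -0.81, for Hbb-y from 1.69 to -0.68, the signs of most sterol enzymes. The globin interactions were -1.08 (Hba-x), -1.56 (Hbb-bh1) and -2.37 (Hbb-y), with adjusted p of 0.42 to 0.613 (limma). Klf1 differed by -0.17 and -0.03, with an interaction of 0.14. None of the 4 tested passed a regional comparison or the interaction. The part of blood in the stage and regional differences was not tested.

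Whether the regional difference itself changed between the stages was tested as an interaction, the closed minus open difference at E9.5 minus that at E8.5. It was negative past the threshold in 9 of the 36 genes and positive in 0, where 0.952% and 0.3% of all tested genes passed (1.25%, 167 genes, in all); at an unadjusted p under 0.05 it was negative in 16 and positive in 1 (6.88% and 2.71% of all tested genes). The 9 were Hmgcs1, Fdft1, Sqle, Cyp51, Nsdhl, Sc5d and Dhcr7 among the 17 sterol enzymes, and Stard4 and Lpl among the 19 other genes. The median interaction was -0.91 over the sterol enzymes, -0.25 over the other 19 and -0.02 over all tested genes. A closed tube above open tissue at E8.5 and below it at E9.5, by the sign of the means alone, was seen in 15 of 17 sterol enzymes and 10 of 19 other genes, in 22.5% of all tested genes and in 44.9% of genes with a negative interaction past the threshold. Whether the enzymes and the other genes differ in this was not tested.

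**Figure D2:**
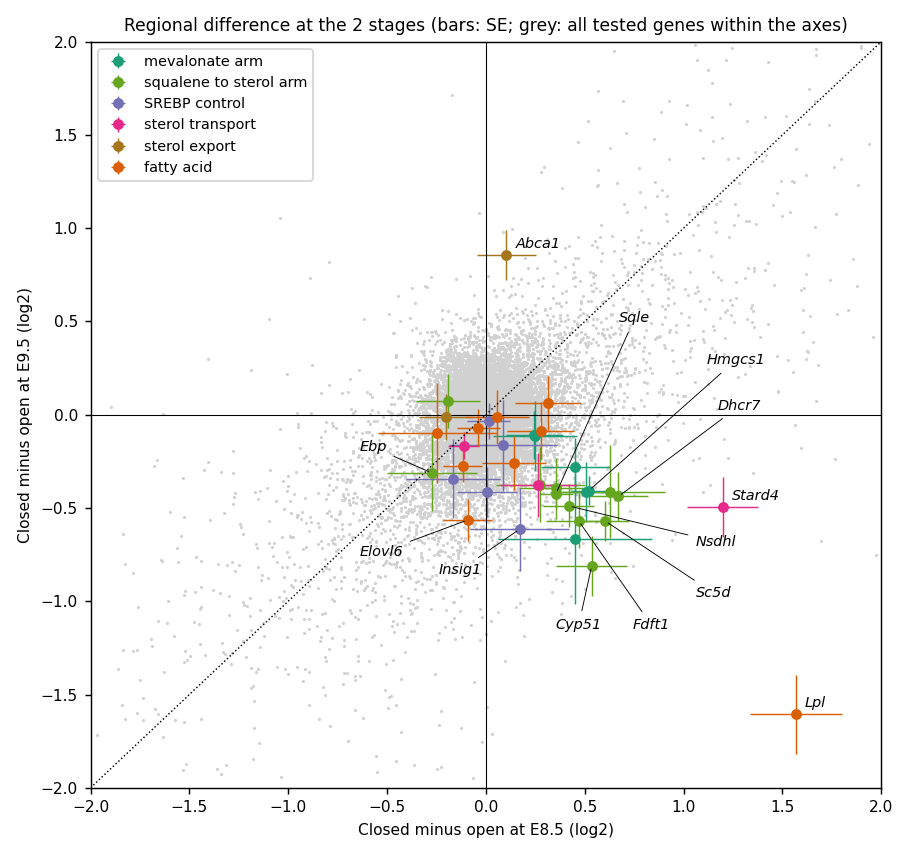
Closed minus open log2 difference at E8.5 (horizontal) and E9.5 (vertical) for the 36 genes, coloured by role, with standard errors as bars; grey points are the other tested genes within the axes and the dotted line marks equal differences. The sterol enzymes gather in the lower right quadrant, Lpl and Stard4 lie far into it, and Abca1 lies above the horizontal axis.

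Left out 1 array at a time, the interaction counted 5 to 8 of these genes, and it counted 5 without open E8.5 replicate 1, without open E8.5 replicate 3 and without closed E8.5 replicate 1. In those fits 94, 84 and 137 of all tested genes passed, against 167 with all arrays. The calls of Lpl, Stard4, Hmgcs1, Sc5d and Sqle held without any 1 array. Cyp51 lost its call without open E8.5 replicate 1 or 3, either closed E8.5 array, or closed E9.5 replicate 1 or 3 (adjusted p 0.0556 to 0.0818). Dhcr7 lost it without open E8.5 replicate 1 or 3, closed E8.5 replicate 1, open E9.5 replicate 2, or closed E9.5 replicate 2 or 3 (0.0556 to 0.0797). Nsdhl kept its call only without open E9.5 replicate 2 or 3 or closed E9.5 replicate 3 (otherwise 0.058 to 0.107), and Fdft1 only without open E9.5 replicate 2 or closed E9.5 replicate 1 (otherwise 0.0574 to 0.207). With the replicate number as a block within each stage, which pairs open and closed arrays, 15 genes passed, where 452 of all tested genes did. Without the block 9 passed, and 167 of all tested genes. The 15 were the same 9, with Mvd, Idi1, Fdps, Hsd17b7 and Insig1 added as negative and Abca1 as positive.

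The mevalonate arm was led by Hmgcs1, the HMG-CoA synthase that commits acetyl units to the pathway (probe set 1433443_a_at). On the deposited log2 scale, Hmgcs1 read 12.10, 11.98 and 11.97 on the open E8.5 arrays and 12.63 and 12.45 on the closed E8.5 arrays. At E9.5 it read 12.81, 12.92 and 12.75 on the open arrays and 12.48, 12.45 and 12.33 on the closed arrays. Open E8.5 arrays were the lowest and open E9.5 arrays the highest, and the open and closed arrays did not overlap at either stage. Closed tissue was 1.44-fold above open at E8.5 (log2 difference 0.52 ± 0.09 SE, adjusted p = 0.00305) and 1.32-fold below it at E9.5 (-0.41 ± 0.08, adjusted p = 0.00663). The interaction was -0.93 ± 0.12 (adjusted p = 0.00281), and in open tissue Hmgcs1 rose 1.76-fold between the stages (adjusted p = 0.000149). The other 4 Hmgcs1 probe sets had the same signs, with interactions from -1.54 to -0.43 that did not pass over all probe sets (adjusted p 0.0509 to 0.851), nor did their E9.5 differences. The E9.5 call was lost with the mean of the 5 probe sets (-0.41, adjusted p = 0.0683) and without open E9.5 replicates 1 and 2 (-0.33, adjusted p = 0.172), while the interaction passed in both.

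On their brightest probe sets, the other 5 measured genes of this arm matched the signs of Hmgcs1 in all comparisons and passed none. They are the kinases Mvk and Pmvk, the decarboxylase Mvd, the isomerase Idi1 and the farnesyl diphosphate synthase Fdps. Closed minus open differences ran from 0.25 to 0.50 at E8.5 and from -0.67 to -0.11 at E9.5. A second Mvk probe set (mean 7.11, against 7.65) had the opposite signs, at -0.04 and 0.10. Its interaction was 0.14 (adjusted p = 0.897 over all probe sets, limma). The interaction was -0.92 ± 0.24 for Mvd (adjusted p = 0.134) and -0.74 ± 0.23 for Idi1 (adjusted p = 0.248). For Fdps it was -1.12 ± 0.52 (adjusted p = 0.533), with open E9.5 values of 8.72, 8.92 and 9.80 and closed E9.5 values of 7.96, 8.37 and 9.10. Fdps values of the 2 regions overlapped at both stages, and within each region at E9.5 replicate 3 was the highest. Blocked on the replicate number, the interaction was -0.93 for Mvd (adjusted p = 0.0181), -0.75 for Idi1 (0.0319) and -0.98 for Fdps (0.0109).

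The arm from squalene to cholesterol held 6 of the 9 genes whose regional difference changed. Fdft1, squalene synthase, joins 2 farnesyl units (probe set 1438322_x_at). Its log2 values at E8.5 were 10.15, 10.15 and 10.09 in open tissue and 10.48 and 10.71 in closed tissue. Those at E9.5 were 11.12, 10.78 and 11.06 in open tissue and 10.76, 10.25 and 10.24 in closed tissue. The closed E8.5 arrays lay above the open ones, the closed E9.5 arrays lay below, and closed E9.5 replicate 1 was the nearest to the open arrays. Fdft1 was lower in closed tissue at E9.5 (-0.57 ± 0.15, adjusted p = 0.033), its interaction was -1.04 ± 0.22 (adjusted p = 0.0485), and it rose by 0.86 ± 0.15 in open tissue. A second Fdft1 probe set gave an interaction of -0.75 (adjusted p = 0.478 over all probe sets), and a pair of dim ones gave 0.10 and 0.03. Averaged over its 4 probe sets, Fdft1 did not pass in any of these comparisons.

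Sqle, squalene epoxidase, adds the oxygen at which the ring closes and is a rate-limiting step (probe set 1415993_at). Open arrays gave Sqle log2 values of 11.02, 10.93 and 11.03 at E8.5, and later, at E9.5, 11.44, 11.43 and 11.45. Closed arrays gave 11.34 and 11.34 and, at E9.5, 10.96, 11.10 and 10.98. The open E8.5 and closed E9.5 arrays were low and the other groups high, with no overlap between regions at either stage. The difference was 0.35 ± 0.09 at E8.5 (adjusted p = 0.0269) and -0.42 ± 0.08 at E9.5 (adjusted p = 0.00392), and the interaction was -0.78 ± 0.12 (adjusted p = 0.00611). The E8.5 call ended without any 1 of the 5 E8.5 arrays (adjusted p 0.0658 to 0.134).

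Cyp51, the sterol 14-demethylase, acts on lanosterol after the ring is closed (probe set 1450646_at). Cyp51 had log2 signals of 8.45, 8.86 and 8.74 in open and 9.19 and 9.24 in closed tissue at E8.5. A day later these were 9.58, 9.53 and 10.00 in open and 8.71, 9.11 and 8.86 in closed tissue. Every open array lay below the closed ones at E8.5 and above them at E9.5. At E8.5 the difference was 0.54 ± 0.18 (adjusted p = 0.125); at E9.5 closed tissue was 1.75-fold lower (-0.81 ± 0.16, adjusted p = 0.00724). Its interaction, -1.34 ± 0.24 (adjusted p = 0.0214), was the most negative of the sterol enzymes. Tested over all probe sets (limma), 2 further Cyp51 probe sets gave interactions of -1.49 (adjusted p = 0.00331) and -1.11 (0.0321). Their E8.5 differences were 0.69 (adjusted p = 0.0082) and 0.36 (0.284). In open tissue Cyp51 rose 2.03-fold between the stages (adjusted p = 0.00309).

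Nsdhl, which removes a carboxyl group from the sterol nucleus and is encoded on the X chromosome, has a single probe set (1416222_at). On the deposited log2 scale, Nsdhl read 9.93, 9.82 and 9.75 on the open E8.5 arrays and 10.32 and 10.18 on the closed E8.5 arrays. At E9.5 it read 10.34, 10.23 and 10.59 on the open arrays and 9.87, 9.81 and 10.00 on the closed arrays. The regions did not overlap at either stage, and the groups again ran low, high, high, low in this order. The difference was 0.42 ± 0.13 at E8.5 (adjusted p = 0.0874) and -0.49 ± 0.12 at E9.5 (adjusted p = 0.0201), with an interaction of -0.91 ± 0.17 (adjusted p = 0.0295). Its E9.5 call ended without open replicate 1, closed replicate 1 or closed replicate 2 (adjusted p 0.0554 to 0.0904).

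Sc5d, the desaturase that makes 7-dehydrocholesterol, differed at both stages (probe set 1451457_at). Its log2 values at E8.5 were 8.49, 8.60 and 8.50 in open tissue and 9.16 and 9.11 in closed tissue. Those at E9.5 were 9.37, 9.38 and 9.44 in open tissue and 8.78, 9.00 and 8.71 in closed tissue. No array of closed tissue overlapped those of open tissue of its stage. Closed tissue was 1.52-fold above open at E8.5 (0.60 ± 0.12, adjusted p = 0.00821) and 1.48-fold below at E9.5 (-0.57 ± 0.11, adjusted p = 0.00507). The interaction was -1.17 ± 0.16 (adjusted p = 0.00384), a second probe set gave -0.94 (adjusted p = 0.126 over all probe sets) and a dim further one 0.12. Averaged over its 3 probe sets, Sc5d differed by 0.39 at E8.5 (adjusted p = 0.0176) and by -0.27 at E9.5, where the call was lost (adjusted p = 0.0562), with an interaction of -0.66 (adjusted p = 0.0243). The E9.5 call was also lost without open E9.5 replicates 1 and 2 (-0.61, adjusted p = 0.0737). Without closed E8.5 replicate 1 the E8.5 call ended (0.58, adjusted p = 0.0632).

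Dhcr7 reduces 7-dehydrocholesterol to cholesterol (probe set 1448619_at). Open arrays gave Dhcr7 log2 values of 8.96, 9.40 and 9.11 at E8.5, and later, at E9.5, 9.68, 9.85 and 9.68. Closed arrays gave 9.92 and 9.73 and, at E9.5, 9.42, 9.29 and 9.18. The highest value was on closed E8.5 replicate 1, followed by open E9.5 replicate 2 and closed E8.5 replicate 2, and the regions did not overlap at either stage. Dhcr7 was 1.59-fold higher in closed tissue at E8.5 (0.67 ± 0.15, adjusted p = 0.0152). At E9.5 the difference was -0.44 ± 0.13 (adjusted p = 0.0669, and 0.03 with the replicate block), and the interaction was -1.11 ± 0.20 (adjusted p = 0.0207). The E8.5 call ended without open replicate 1 or 3 or closed replicate 1 (adjusted p 0.0618 to 0.128).

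The remaining 5 enzymes of this arm passed neither regional comparison nor the interaction. Lss, which closes the ring to lanosterol, rose in open tissue by 0.76 ± 0.16 (adjusted p = 0.0191) and had an interaction of -0.75 ± 0.25 (adjusted p = 0.277). Msmo1, a sterol methyl oxidase, had an interaction of -1.04 ± 0.37 (adjusted p = 0.339). Open E9.5 replicate 3 read 10.94 for Msmo1 while replicates 1 and 2 read 10.10 and 9.68. Hsd17b7, a sterol ketone reductase, had an interaction of -0.65 (adjusted p = 0.53). The 2 enzymes outside the pattern were Tm7sf2, a sterol reductase, and Ebp, the sterol isomerase. Tm7sf2 differed by -0.19 at E8.5 and 0.07 at E9.5, and Ebp by -0.27 and -0.31, so in both the closed E8.5 mean lay below the open one and no adjusted p was under 0.472.

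**Figure D3:**
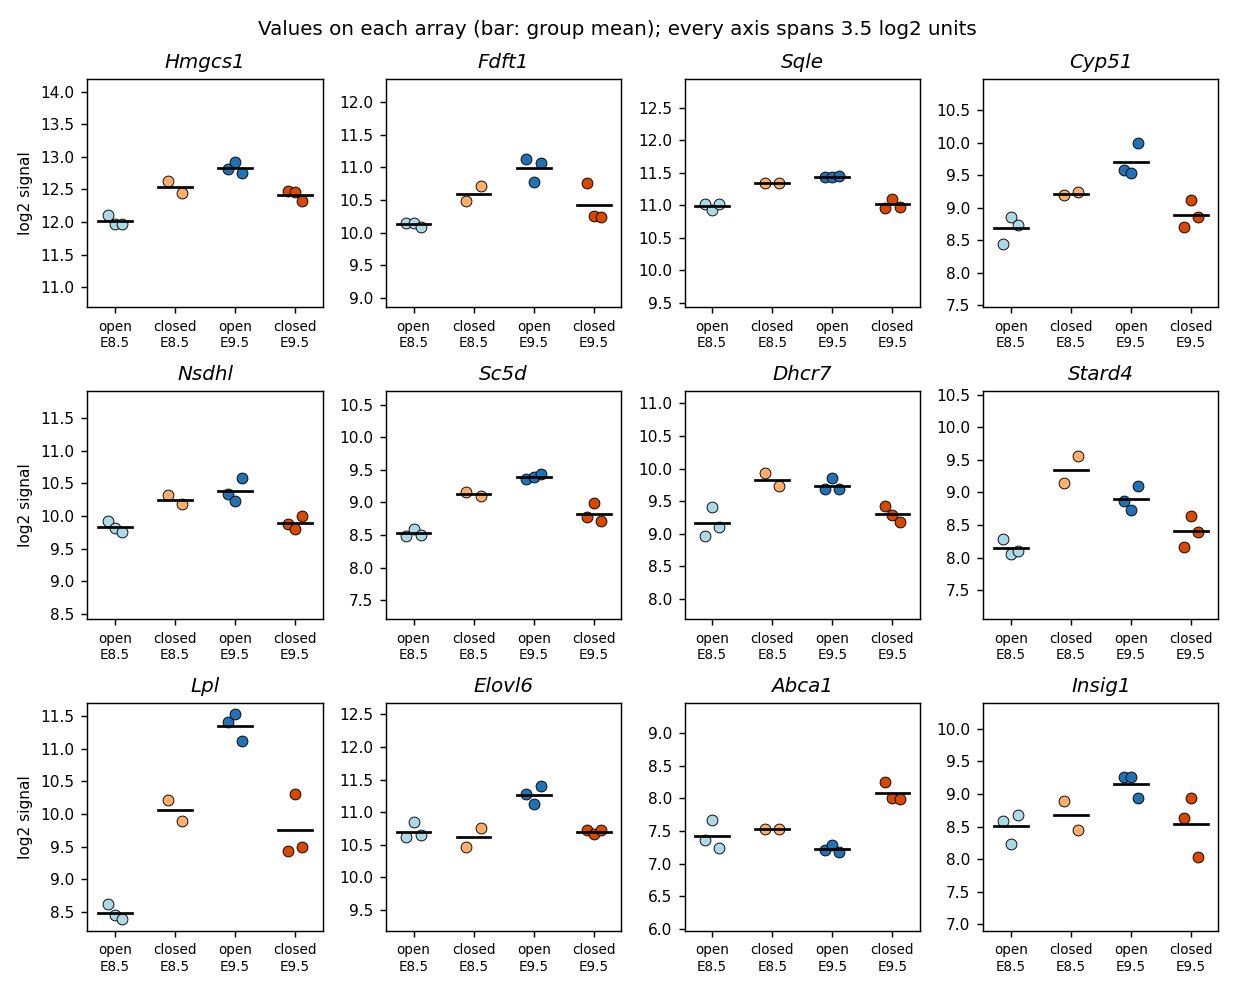
Log2 signal on each array (points) and group means (bars) for the 11 genes past the threshold in a regional comparison or the interaction, and for Insig1; each axis spans the same log2 range, while its position is the gene's own. Hmgcs1, Fdft1, Sqle, Cyp51, Nsdhl, Sc5d and Lpl show low, high, highest and lower values in the order open E8.5, closed E8.5, open E9.5, closed E9.5, Dhcr7 and Stard4 are highest in closed E8.5 tissue, and Abca1 is highest in closed E9.5 tissue.

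In open neuroepithelium 8 of the 17 sterol enzymes rose from E8.5 to E9.5 and 0 fell, where 3.61% and 1.42% of all tested genes did so. In closed tube 0 of 17 passed (0.96% of all tested genes were higher and 1.46% lower); at an unadjusted p under 0.05, 5 were lower and 0 higher, beside 6.39% and 3.79% of all tested genes. The 8 were Hmgcs1, Fdft1, Sqle, Lss, Cyp51, Nsdhl, Sc5d and Dhcr7, by 0.45 (Sqle) to 1.02 (Cyp51), and the median over the 17 was 0.50 in open and -0.31 in closed tissue. Without open E8.5 replicate 3 the count over all 36 genes fell from 11 to 6, and without open E9.5 replicate 1 to 7. The count over all tested genes fell as well, from 670 to 422 and 436. Nsdhl lost its call without open E8.5 replicate 2 or 3 or open E9.5 replicate 1 (adjusted p 0.0504 to 0.0804), and Lss without open E8.5 replicate 1 or 3 or open E9.5 replicate 1 (0.062 to 0.0991). Dhcr7 lost it without open E8.5 replicate 1 or 3 or open E9.5 replicate 1 or 2 (0.071 to 0.13).

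None of the 5 genes of SREBP control passed in any comparison, and at an unadjusted p under 0.05 none was higher or lower at E8.5, 2 were lower at E9.5 and 1 had a negative interaction (12.6% and 6.88% of all tested genes). For Srebf1 and Srebf2, which encode the SREBP factors, the interactions were -0.18 (95% interval -0.87 to 0.52) and -0.25 (-1.06 to 0.56). For the escort Scap the interaction was -0.05 (-0.37 to 0.27). Insig1, an Insig that is itself a known SREBP target, had the smallest interaction p of the 5 (probe set 1454671_at). Insig1 had log2 signals of 8.59, 8.24 and 8.68 in open and 8.89 and 8.45 in closed tissue at E8.5. A day later these were 9.26, 9.26 and 8.93 in open and 8.64, 8.94 and 8.04 in closed tissue. Open E9.5 arrays held the highest values but overlapped the closed ones, in which replicate 2 was the highest and replicate 3 the lowest. The difference was 0.17 ± 0.25 at E8.5 and -0.61 ± 0.22 at E9.5 (adjusted p = 0.134), with an interaction of -0.78 ± 0.33 (adjusted p = 0.464; with the replicate block -0.87 and 0.0268).

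Insig2 differed by 0.01 at E8.5 and -0.41 ± 0.14 at E9.5 (adjusted p = 0.093, and 0.0109 with the block), and its closed E9.5 arrays lay below the open ones. Srebf1 also passed at E9.5 with the block (-0.34, adjusted p = 0.0455). A second, dimmer Srebf2 probe set had an interaction of -0.92 (adjusted p = 0.393 over all probe sets), beside the -0.25 of the brighter one. Open E9.5 replicate 3 was the highest of its group for Srebf2 and for 20 of the 36 genes in all, 11 of them among the 17 sterol enzymes. The mean deviation of the sterol enzymes (each gene less the mean of its group means, log2) was 0.47 on that array and 0.23 and 0.09 on open E9.5 replicates 1 and 2. Without open E9.5 replicate 3 the interaction counted 8 genes, Fdft1 being lost, while 239 of all tested genes passed, against 167 with all arrays. Without that array the median E9.5 difference over the 36 genes was -0.22, where it was -0.36 with all arrays. That array also had the lowest 3′ minus 5′ signal of Gapdh and Actb, 1.14, where open E9.5 replicates 1 and 2 had 2.20 and 2.48 and the other 8 arrays 1.15 to 1.82. This difference in signal along a transcript, larger where RNA is shorter, was used as a covariate. Then 17 genes had a negative interaction past the threshold, among them the same 9 and Srebf2 (-0.81, adjusted p = 0.0374). Over all tested genes 297 passed with the covariate, against 167 without it. With open E9.5 replicates 1 and 2 left out, replicate 3 stood alone for open E9.5 tissue and was assumed to vary like the arrays of the other groups, which supplied the spread. In that fit 8 genes passed, 6 of them among the 9: Fdft1, Sqle and Dhcr7 were lost (adjusted p 0.163, 0.064 and 0.17), and Idi1 (-1.17) and Msmo1 (-1.74), both highest on the array that was kept, gained. The part of RNA quality in the gene-level differences was not tested further.

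**Figure D4:**
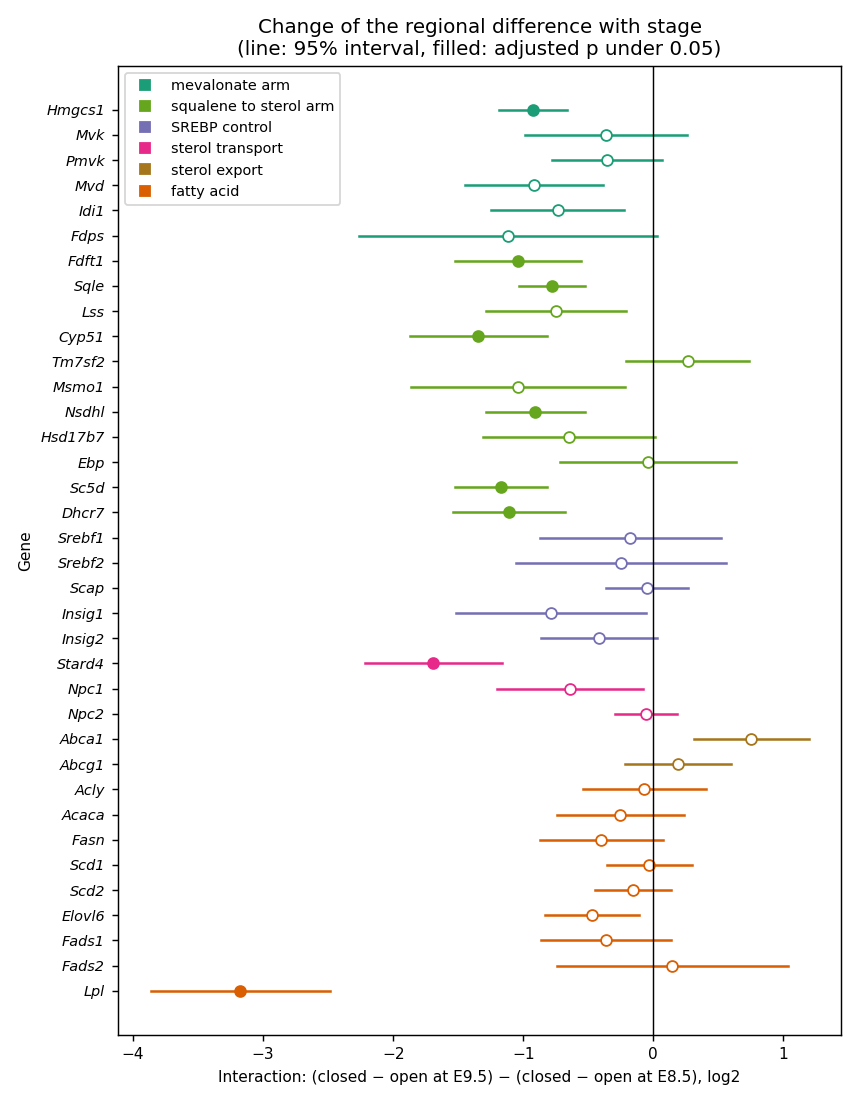
Interaction of region and stage for the 36 genes (point, log2) with its 95% interval (line), filled where the adjusted p is under 0.05, coloured by role. The 9 filled points are all below 0, from -0.78 for Sqle to -3.18 for Lpl, and Abca1 has the largest positive value, 0.75.

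Among sterol transport genes, Stard4, a soluble protein that moves sterol between membranes and is a known SREBP target, had the second largest interaction of the 36 (probe set 1455011_at). On the deposited log2 scale, Stard4 read 8.29, 8.06 and 8.11 on the open E8.5 arrays and 9.14 and 9.56 on the closed E8.5 arrays. At E9.5 it read 8.86, 8.73 and 9.09 on the open arrays and 8.17, 8.64 and 8.40 on the closed arrays. Closed E8.5 tissue held the 2 highest values and open E8.5 tissue the 2 lowest, and the regions did not overlap at either stage. Closed tissue was 2.29-fold above open at E8.5 (1.20 ± 0.18, adjusted p = 0.00122), and at E9.5 the difference was -0.50 ± 0.16 (adjusted p = 0.0894, and 0.042 with the block). The interaction was -1.69 ± 0.24 (adjusted p = 0.00458), and the other Stard4 probe sets gave -1.26 and -1.54. Stard4 rose by 0.75 in open tissue (adjusted p = 0.0193) and fell by 0.95 in closed tissue between the stages (adjusted p = 0.0167). The closed call ended without closed E8.5 replicate 2 or closed E9.5 replicate 1 or 3 (adjusted p 0.0512 to 0.163), and the open call without open E8.5 replicate 2 or 3 or open E9.5 replicate 1 (0.0622 to 0.079). Npc1 and Npc2, which release cholesterol from lysosomes, had interactions of -0.64 ± 0.26 (adjusted p = 0.421) and -0.05 (adjusted p = 0.924).

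Of the 2 sterol exporters, Abca1 passes cholesterol and phospholipid out of the cell to apolipoprotein and is induced by sterol-sensing LXR receptors (probe set 1421840_at). Its log2 values at E8.5 were 7.37, 7.68 and 7.24 in open tissue and 7.53 and 7.54 in closed tissue. Those at E9.5 were 7.21, 7.29 and 7.18 in open tissue and 8.26, 8.00 and 7.99 in closed tissue. The 3 closed E9.5 arrays were above all the others, and the other 3 groups lay between 7.18 and 7.68. Abca1 was 1.81-fold higher in closed tissue at E9.5 (0.85 ± 0.13, adjusted p = 0.00156), while the E8.5 difference was 0.10 ± 0.15 (adjusted p = 0.935). Its interaction was 0.75 ± 0.20 (adjusted p = 0.141, and 0.84 with adjusted p = 0.032 under the block). Averaged over its 3 probe sets, 2 of which were below the filter, Abca1 differed by 0.40 at E9.5 (adjusted p = 0.00179). Abcg1, the exporter to high-density lipoprotein, differed by -0.20 at E8.5 and -0.01 at E9.5.

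Of the 9 fatty acid genes, 1 was higher in closed tissue at E8.5, 2 were lower at E9.5 and 1 had a negative interaction, where 3.79%, 5.79% and 0.952% of all tested genes did so. Lpl, lipoprotein lipase, which frees fatty acids from circulating triglyceride and makes no lipid itself, had the largest differences of the 36 genes (probe set 1415904_at). Open arrays gave Lpl log2 values of 8.62, 8.45 and 8.39 at E8.5, and later, at E9.5, 11.41, 11.53 and 11.13. Closed arrays gave 10.21 and 9.90 and, at E9.5, 9.44, 10.31 and 9.50. Open tissue held the 3 lowest values at E8.5 and the 3 highest at E9.5, and closed E9.5 replicate 2 stood above the other closed E9.5 arrays. Closed tissue was 2.97-fold above open at E8.5 (1.57 ± 0.23, adjusted p = 0.00123) and 3.05-fold below it at E9.5 (-1.61 ± 0.21, adjusted p = 0.000386). The interaction was -3.18 ± 0.32 (adjusted p = 0.000753), and a second, dimmer probe set gave -3.01. In open tissue Lpl rose 7.31-fold between the stages (adjusted p = 2.25e-05), and in closed tissue the difference was -0.30 (adjusted p = 0.867). Macrophages also make Lpl. Of the 4 macrophage markers 3 were below the filter, and the list averaged 4.25 to 4.28 on open E9.5 replicates 1 and 2, 4.07 on replicate 3 and 4.13 to 4.37 on closed E9.5 arrays. The 1 tested, Csf1r, read 6.01, 6.07 and 5.61 on open E9.5 arrays and 5.87, 6.25 and 6.23 on closed E9.5 arrays. The part of macrophages in the Lpl differences was not tested.

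Elovl6, which lengthens saturated fatty acids, was lower in closed tissue at E9.5 alone among the remaining 8 (probe set 1417404_at). Elovl6 had log2 signals of 10.62, 10.84 and 10.65 in open and 10.46 and 10.76 in closed tissue at E8.5. A day later these were 11.28, 11.12 and 11.40 in open and 10.73, 10.66 and 10.72 in closed tissue. The open E9.5 arrays lay above all others, and the other groups overlapped. The E9.5 difference was -0.56 ± 0.11 (adjusted p = 0.00652) and the E8.5 difference -0.09 ± 0.12; averaged over its 3 probe sets the E9.5 difference was -0.38, and the call was lost (adjusted p = 0.0515); the interaction was -0.47 ± 0.17 (adjusted p = 0.319), and Elovl6 rose by 0.56 in open tissue (adjusted p = 0.0113), a call that ended without open E8.5 replicate 1 or 3 (0.0573 and 0.0638).

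The other 7 were the enzymes that make and desaturate fatty acids: Acly, Acaca, Fasn, Scd1, Scd2, Fads1 and Fads2. They passed no comparison, and their interactions ran from -0.40 for Fasn (95% interval -0.87 to 0.07) to 0.15 for Fads2. Leaving out Lpl, the median of the 8 was 0.01 at E8.5 and -0.09 at E9.5, and the median interaction -0.21, with 3 of 8 having closed tissue above open at E8.5 and below at E9.5. In open tissue all 9 means were higher at E9.5, by a median of 0.40, though only Elovl6 and Lpl passed (3.61% of all tested genes were higher), and 6 did so at an unadjusted p under 0.05 (10.7% of all tested genes). Scd2 was lower in closed tissue at E9.5 with the replicate block (-0.27, adjusted p = 0.0203).

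**Figure D5:**
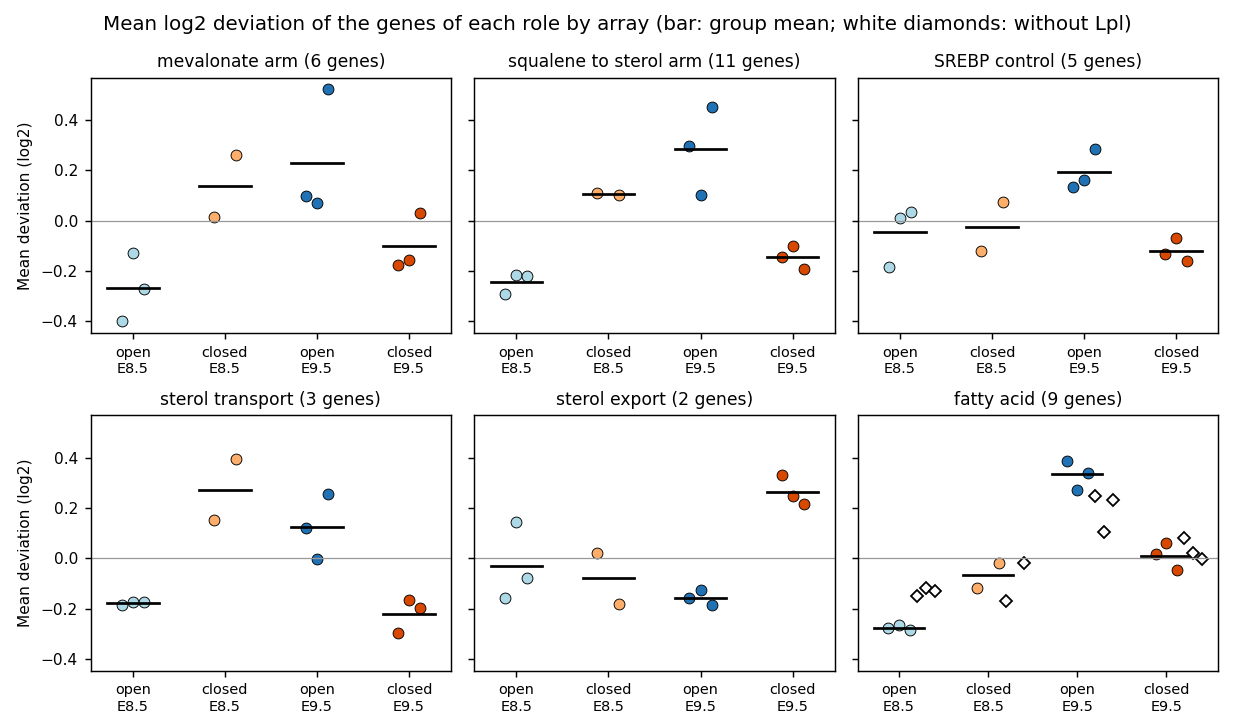
Mean deviation of the genes of each role from their own mean of group means (log2), 1 point per array, with the group mean as a bar; for fatty acid genes the white diamonds leave out Lpl. In the squalene to sterol arm the 3 open E8.5 arrays are the lowest, in the mevalonate arm open E8.5 replicate 2 lies above closed E9.5 replicates 1 and 2, and in SREBP control the closed E8.5 and open E8.5 arrays overlap, while the 2 exporters together are highest on the closed E9.5 arrays.

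The same comparisons were read for other genes of these pathways. Among 7 further sterol genes, none passed a regional comparison or the interaction (limma; at an unadjusted p under 0.05, 2 were higher at E8.5, 1 was lower at E9.5 and 1 interaction was negative, beside 8.08%, 12.6% and 6.88% of all tested genes); Aacs, which activates acetoacetate, had an interaction of -0.84 ± 0.22 (adjusted p = 0.129) and rose by 0.71 in open tissue (adjusted p = 0.0161), and Acat1 had -0.47 (adjusted p = 0.55). Among 5 further genes of SREBP control, none passed in any comparison. At an unadjusted p under 0.05, 1 was higher in closed tissue at E8.5 (8.08% of all tested genes), 0 differed at E9.5 (12.6% lower and 6.65% higher) and 0 had an interaction (6.88% negative and 2.71% positive). The interaction of the site-2 protease Mbtps2 was -0.32 (adjusted p = 0.584) and that of Erlin1 -0.43 (adjusted p = 0.75). Among 10 genes of lipoprotein uptake, transport and storage, 0 passed in the interaction (3 at an unadjusted p under 0.05, all negative, beside 6.88% of all tested genes), with Mylip at -0.73 (adjusted p = 0.308) and Lrp8 at -0.53 (adjusted p = 0.492). At E9.5, 2 of the 10 were lower in closed tissue and 1 higher, where 5.79% and 2.75% of all tested genes passed. Mylip, which marks lipoprotein receptors for breakdown, was lower in closed tissue at E9.5 by 1.32 (adjusted p = 0.000294), as was the receptor Lrp2 by 1.04 (adjusted p = 0.0295), and the receptor Vldlr was higher by 0.94 (adjusted p = 0.0441).

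Among 19 further lipid genes 2 had a negative interaction past the threshold, as had 0.952% of all tested genes. Lpin1, a phosphatidate phosphatase of triglyceride synthesis, was lower in closed tissue at both stages, by 0.55 at E8.5 and 1.83 at E9.5 (interaction -1.27 ± 0.17, adjusted p = 0.00378). Fabp7, the brain fatty acid binding protein of neural progenitors, was higher in closed tissue at E8.5 (1.15, adjusted p = 0.0225), with a difference of -0.67 at E9.5 (adjusted p = 0.131) and an interaction of -1.82 ± 0.36 (adjusted p = 0.0371). Acsl3, an acyl-CoA synthetase, was lower in closed tissue at E9.5 by 0.97 (adjusted p = 0.0212), and its interaction was -1.41 ± 0.35 (adjusted p = 0.106).

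The numbered pairing of open and closed arrays within a stage changed the regional counts as well. With the block, the E8.5 count of genes higher in closed tissue was 10, where it was 6 without the block, Mvd, Idi1, Fdft1 and Nsdhl being added; over all tested genes 1332 passed at E8.5 with the block and 957 without it. At E9.5, 18 were lower and 1 higher, adding Mvd, Fdps, Hsd17b7, Dhcr7, Srebf1, Insig1, Insig2, Stard4, Npc1 and Scd2, while 2221 of all tested genes passed with the block and 1139 without it. Without closed E8.5 replicate 1 the E8.5 count was 3 (778 of all tested genes). Without closed E8.5 replicate 2, the array with somite marker signal, it was 5 (677 of all tested genes) and the interaction count 6 (102 of all tested genes). At E9.5 Fdft1 lost its call without open E9.5 replicate 1 or 3, closed E9.5 replicate 2 or 3, or open E8.5 replicate 1 or 3 (adjusted p 0.0545 to 0.143).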

How the data were processed

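Values were the log2 signals that the authors deposited, 45101 probe sets on 11 arrays from 2.37 to 14.7. The submitters' processing notes name MAS5 without a version or role; background correction, summarisation and normalization are not given in the sources used here. Probe sets with 1 gene symbol in the platform annotation (34945) were kept, those with several (932) or none (9160, beside 64 controls) were not, and 1 probe set per gene was used, the one of highest mean. Genes at or above the 40th percentile of probe-set means (4.3) were tested: 13338 of 18193.

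In R 4.3.3, limma 3.58.1 fitted 4 group means over all 11 arrays (7 residual degrees of freedom) with an intensity trend, and p-values were adjusted by Benjamini-Hochberg over all tested genes, with 0.05 as threshold. The deposited values were not normalized again. A self-test on simulated data was run first. The number of arrays limits the precision. P-values measure the spread between arrays whose litters the labels do not name.

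Deviations from group means correlated at 0.576 and 0.697 for same-numbered open and closed arrays at E8.5 and at 0.308, 0.341 and 0.687 at E9.5. All 5 are above 0.1, but these values do not settle whether the numbers pair arrays, and the labels give only the numbers. At E9.5 open replicate 2 with closed replicate 1 reached 0.317, above the 0.308 of the replicates numbered 1. At E8.5 the deviations of the 2 closed arrays mirror each other, so their correlations with an open array are equal and opposite. The main fit has no pairing, and the replicate number was a block in alternatives only.

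The genes and lists were chosen with earlier results of these data known. Values on every array are printed for genes past the threshold in the interaction or a regional comparison, and for the gene of smallest interaction p in a role without one; others are given by counts and differences. From the further pathway lists those past the threshold in the interaction are named, or else the 2 of smallest p; Acsl3, Mylip, Lrp2 and Vldlr were also named for passing at E9.5. The motif TCACNNCA was chosen after the sequences were read. Alternatives were another scaling, filter, probe set rule, variance model, array weights, replicate blocks, RNA quality as a covariate, and leaving out arrays.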

Additional observations from a re-analysis of the deposited data

Results flagged for a closer look

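The closed minus open difference differed between E8.5 and E9.5 by the interaction test (limma) in 9 sterol and lipid genes. On the log2 scale the interaction was -0.93 for Hmgcs1, -1.04 for Fdft1, -0.78 for Sqle, -1.34 for Cyp51, -0.91 for Nsdhl, -1.17 for Sc5d and -1.11 for Dhcr7 among the sterol enzymes. It was -1.69 for Stard4, a sterol carrier, and -3.18 for Lpl, lipoprotein lipase. All 9 had a closed mean above the open mean at E8.5 and below it at E9.5.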

How the results depend on the processing

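Quantile normalization, median centring, the filters, the probe set rules, the trend and robust variances kept each count of genes past the threshold within 1.5 times its value, and no call among those named changed sign under any alternative run. Of the alternatives, the written design named the replicate block. With the replicate block within stage, 10 genes passed at E8.5, 19 at E9.5 and 15 in the interaction, against 6, 9 and 9; no call was lost under that block, and over all tested genes 1332 passed at E8.5, 2221 at E9.5 and 452 in the interaction, against 957, 1139 and 167. The block over both stages lost Sqle at E8.5 (adjusted p = 0.0697) and Fdft1 in the interaction (0.078). With the 3′ minus 5′ signal as a covariate the counts were 13 at E8.5, 19 at E9.5, 18 and 7 for stage in open and closed tissue, and 17 in the interaction, against 6, 9, 11, 1 and 9; over all tested genes they were 1519, 1764, 1003, 730 and 297, against 957, 1139, 670, 323 and 167. Array weights gave 18 at E9.5 and 19 for stage in open tissue (3424 and 4301 of all tested genes), with weights of 6.29 for open E9.5 replicate 1 and 0.314 for replicate 3. Fitting only the groups compared left 0 for stage in closed tissue (150 of all tested genes). Without open E9.5 replicates 1 and 2 together, which leaves 1 array in that group, 603, 182 and 72 of all tested genes passed at E9.5, for stage in open tissue and in the interaction. Leaving out 1 array at a time gave 3 to 9 genes at E8.5, 7 to 11 at E9.5, 6 to 11 and 0 to 1 for stage in open and closed tissue, and 5 to 8 in the interaction. Over all tested genes these fits gave 654 to 1097, 792 to 1533, 367 to 1262, 174 to 375 and 84 to 239. The cause of these shifts was not tested. Lpl, Stard4, Hmgcs1 and Sc5d kept a negative interaction past the threshold under all alternatives run; Sqle lost it without open E9.5 replicates 1 and 2 (adjusted p = 0.064), and Cyp51, Dhcr7, Nsdhl and Fdft1 lost it in 6, 7, 10 and 18 alternatives, with adjusted p up to 0.0818, 0.17, 0.107 and 0.407. Of 20 genes with more than 1 probe set above the filter, 14 had the same sign of interaction on all of them. Signals near the filter limit what can be read of dim probe sets.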
